A study of Drosophila melanogaster with 9 samples.

Results

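The 42 homeobox genes described here were taken by name from a list of homeobox genes of central brain neurons, and all 42 have a row among the 16854 genes of the deposited table, under the symbols of the list. Homeobox genes encode transcription factors that bind DNA through a homeodomain. They are known for laying out the regions of the embryonic brain and, later, for giving classes of neurons their identity, often acting in combinations. Extradenticle (exd) and Homothorax (hth) are partners that bind DNA together with Hox proteins, and many of the other genes are used by neurons of particular lineages.

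RNA came from Drosophila melanogaster brains with the optic lobes removed, dissociated and sorted into 3 populations. Kenyon cells (KC), the intrinsic neurons of the mushroom body, carried GFP. Olfactory projection neurons (PN), which relay odor signals from the antennal lobe, carried tomato, and the double-negative cells (DN) carried neither. The groups were adult KC, PN and DN, with 2 libraries each per the labels, and KC, PN and DN at 45 h after puparium formation (45 h APF), with 1 library each from a pooled sample. All groups pooled males and females and shared 1 genotype, with GH146:Gal4>UAS:tomato over the balancer CyO, and MB247:LexA>LexAop:GFP, the source of the Kenyon cell label, over the balancer TM2. GH146 is a driver known to label many but not all projection neurons and some other cells. DN is a mixture of the remaining cells, so a gene used by a small lineage is diluted there. The TM2 balancer chromosome is known to carry a mutation of the homeobox gene Ubx. Values are FPKM (fragments per kilobase of transcript relative to library size, computed by the authors). A value at 45 h APF comes from 1 library, and in the adult it is a mean made by the authors, so no value has an error and no difference has a replicate check. Stage, sequencer and read length (50 bases in the adult and 75 bases at 45 h APF) cannot be told apart.

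Summed over their lists, markers of Kenyon cells and of projection neurons were highest in the population they name, with single genes that were not. The lists were chosen with earlier results of these data known, so the sums are no independent check of the sorting. The 6 Kenyon cell markers summed to 2531 FPKM in adult KC, 155 in PN and 234 in DN, and to 900.0, 66.0 and 111 FPKM at 45 h APF. For the 5 projection neuron markers the sums were 0.598, 510 and 29.4 FPKM in adult KC, PN and DN, and 2.23, 141 and 22.7 FPKM at 45 h APF. In the Kenyon cell list, Mef2 was at 125 FPKM in adult KC and 112 in adult PN, and at 45 h APF KC had 35.3 FPKM of toy, PN 15.7 and DN 39.3, while for sNPF KC had 12.9, PN 37.0 and DN 52.0 FPKM. Of the projection neuron list, vvl was at 0.860 FPKM in PN and 4.10 FPKM in DN at 45 h APF. Sums of glial markers differed by stage, most in PN. The 7 glial genes summed to 125, 60.6 and 218 FPKM in adult KC, PN and DN. At 45 h APF they summed to 174, 1589 and 665 FPKM, where PN had the largest sum. In KC 3 of the 7 were higher in the adult and 4 lower. Wrapper was at 0.344 FPKM in adult KC and 49.0 FPKM in KC at 45 h APF. At 45 h APF wrapper was lowest in PN, at 14.1 FPKM, beside 43.0 FPKM in DN. Repo, the homeobox factor of glia, stood at 0.480, 0.347 and 1.82 FPKM in the adult and at 6.42, 29.9 and 12.3 FPKM at 45 h APF. The 3 posterior Hox genes, which mark the ventral nerve cord, reached 3.01 FPKM at most (Ubx, DN at 45 h APF), and none of the 4 neuroblast markers reached 1 FPKM in any column. The 5 muscle markers summed to 177 FPKM in DN at 45 h APF, of which Act87E made 116 FPKM, against 3.84 FPKM in adult DN and at most 6.61 FPKM in the KC and PN columns. The 7 photoreceptor markers summed to 13.3 FPKM in adult DN and at most 2.88 FPKM elsewhere. The depth at 45 h APF was estimated as 24.2 M reads in KC, 29.2 M in PN and 32.2 M in DN, inferred from the steps between low values. On that estimate 5 FPKM stands for 112 to 1848 reads of a listed homeobox gene, depending on its length.

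How many of the 42 genes each population used was asked first, with 5 FPKM as the level of detection. In the adult 5 were detected in KC, 8 in PN and 16 in DN. The counts at 45 h APF were 2 for KC, 14 for PN and 18 for DN. Of all genes in the table, the share detected was 38.5%, 40.6% and 40.1% in adult KC, PN and DN and 37.2%, 40.0% and 40.7% at 45 h APF. As shares of the 42 genes, the counts are 11.9%, 19.0% and 38.1% in the adult and 4.76%, 33.3% and 42.9% at 45 h APF. Only in DN was the share of homeobox genes near that of all genes at both stages. At a level of 1 FPKM the counts were 9, 18 and 32 in the adult and 11, 24 and 33 at 45 h APF, in the same order of populations. No share of all genes at 1 FPKM is given, so these counts cannot be read against all genes. The median of the 42 genes was 0.138, 0.550 and 2.05 FPKM in adult KC, PN and DN and 0.205, 2.25 and 2.35 FPKM at 45 h APF.

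**Figure D1:**
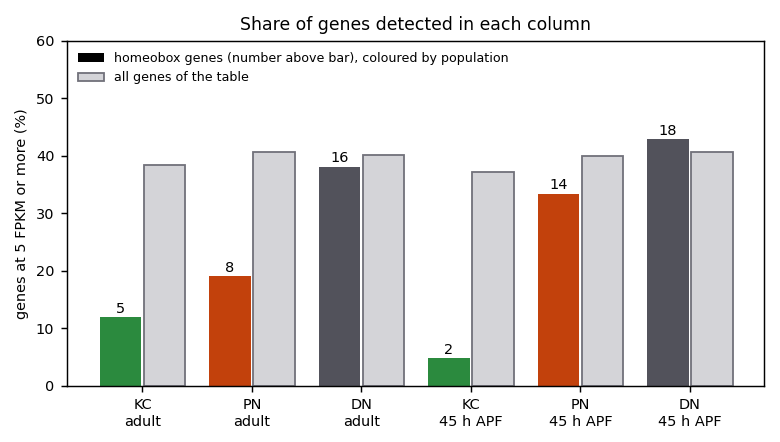
Percent of genes at 5 FPKM or more in each of the 6 columns, for the 42 homeobox genes (coloured bars, with their number above) and for all 16854 genes of the table (grey bars). Homeobox genes range from 2 detected in KC at 45 h APF to 18 in DN at 45 h APF, while the grey bars stay between 37.2% and 40.7%.

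In all, 21 of the 42 genes reached 5 FPKM in at least 1 column. Exd alone was detected in all 6. In the adult, 20 genes were detected in some population, of which exd, hth and onecut were found in all 3 populations, Vsx1 and zfh2 in KC alone, caup and unpg in PN alone, ara, tup and pdm3 in PN and DN, and 10 in DN alone. Again 20 genes were detected somewhere at 45 h APF. Exd was then the only one found in all 3 populations, and 11 were found in PN and DN but not in KC. Vsx1 was found in KC and DN, caup and unpg in PN alone, 5 in DN alone and none in KC alone. Most detected genes of the table behaved otherwise: 80.4% in the adult and 78.5% at 45 h APF were detected in all 3 populations, and 3.34% and 4.92% in DN alone. The share found in PN and DN but not in KC was 4.81% in the adult and 6.96% at 45 h APF, that in PN alone 4.76% and 3.86%, and that in KC alone 2.51% and 2.53%. For KC and DN but not PN it was 2.31% in the adult and 1.92% at 45 h APF. By their peaks over the 6 columns, the genes nearest the threshold were slou above it, at 8.22 FPKM, and zfh1 below it, at 4.60 FPKM. Single columns came closer: Optix was at 4.86 FPKM in adult PN and Vsx1 at 5.15 FPKM in DN at 45 h APF. With columns rescaled to the same sum, 10 of the 42 genes were detected in adult PN and 18 in adult DN.

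**Figure D2:**
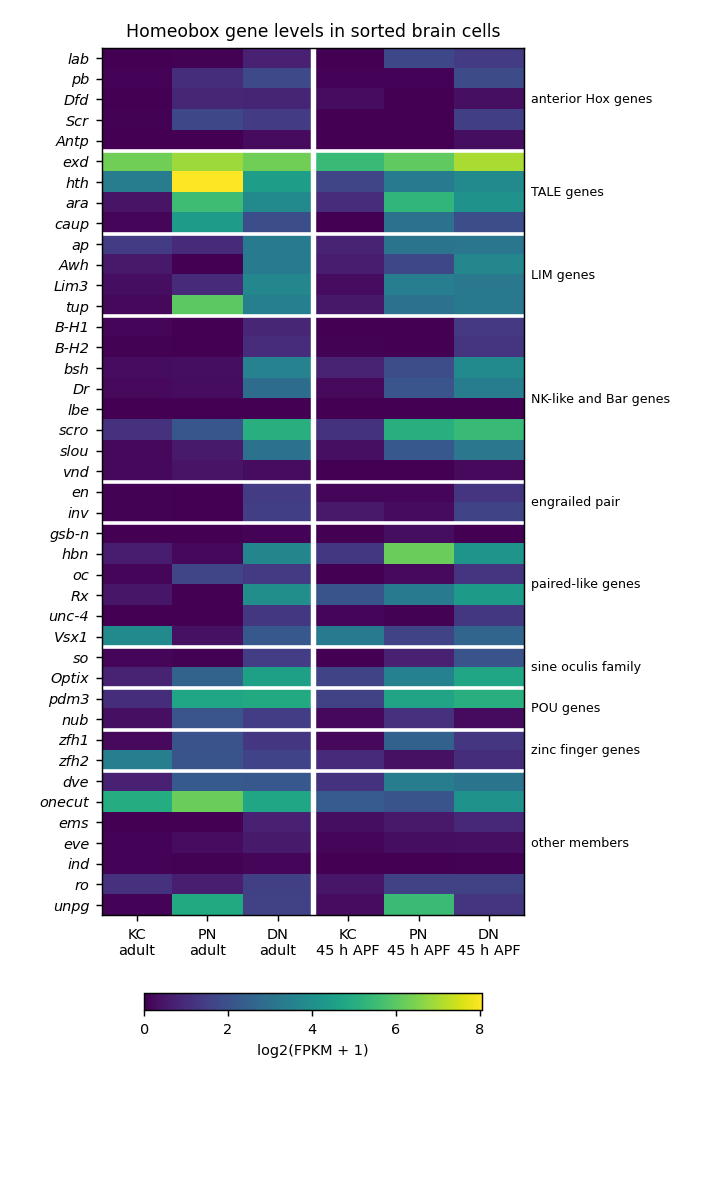
Levels of the 42 homeobox genes as log2(FPKM + 1), with 1 row per gene grouped by family and 1 column for each population in the adult and at 45 h APF. KC columns are dark except for exd, Vsx1 and, in the adult, hth, onecut and zfh2, whereas DN columns show intermediate levels over many rows.

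Homeobox genes that KC did express formed a short list. Exd (chromosome X, 15992468 to 15996509, dm6), the Hox partner, stood at 78.0 FPKM in adult KC, 117 in PN and 78.5 in DN, and at 42.5, 67.5 and 130 FPKM at 45 h APF. It was the highest of the 42 genes in KC at both stages. Vsx1 (chromosome X, 5594255 to 5612865), a paired-like factor known from the visual system, was at 13.4 FPKM in adult KC, 0.274 in PN and 3.64 in DN, and at 9.12, 2.17 and 5.15 FPKM at 45 h APF. KC was the population with the most Vsx1 at each stage.

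The remaining 3 genes detected in KC were detected there only in the adult. Onecut (chromosome 4, 598555 to 607649), a CUT-class factor expressed in neurons, was at 30.7 FPKM in adult KC, 74.0 in PN and 25.4 in DN, and at 4.11, 3.27 and 16.3 FPKM at 45 h APF. For zfh2 (chromosome 4, 501810 to 540874), which encodes zinc fingers beside homeodomains, the values were 9.96, 3.25 and 2.08 FPKM in adult KC, PN and DN and 0.970, 0.278 and 1.08 FPKM at 45 h APF. Of the exon length of zfh2, 18.7% overlaps the gene Tdg on the opposite strand, and Tdg was at 9.63, 32.0 and 11.4 FPKM in the adult and at 2.13, 3.70 and 9.04 FPKM at 45 h APF. No source used here states that reads were assigned by strand, so reads in the overlap cannot be attributed. Hth (chromosome 3R, 10507561 to 10639568), which carries Exd into the nucleus, stood at 9.55 FPKM in adult KC and 2.21 in KC at 45 h APF. In DN hth was at 21.8 FPKM in the adult and 13.3 FPKM at 45 h APF. Its PN values, much higher in the adult, are given with the stages.

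The TALE class also holds the Iroquois genes ara and caup, factors known for patterning the thorax and the eye. Ara (chromosome 3L, 12580672 to 12596018) was at 0.344 FPKM in adult KC, 45.9 in PN and 13.3 in DN, and at 1.05, 38.4 and 16.2 FPKM at 45 h APF. Caup (chromosome 3L, 12609631 to 12621798) was at 0.0818, 20.9 and 2.86 FPKM in the adult and at 0.00998, 7.18 and 2.81 FPKM at 45 h APF. At both stages each gene was highest in PN and lowest in KC. The pair lies 13.6 kb apart on the same strand, and mirr, the third gene of the complex and not one of the 42, lies 71.8 kb beyond caup. Mirr was at 0.133, 141 and 7.79 FPKM in adult KC, PN and DN and at 0.744, 28.8 and 8.31 FPKM at 45 h APF, so PN was highest for it as well.

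Unpg (chromosome 2R, 9195205 to 9199870), the unplugged gene of the embryonic brain, was also high in PN. Its values were 0.0501, 28.6 and 2.03 FPKM in adult KC, PN and DN and 0.194, 43.9 and 1.35 FPKM at 45 h APF. Among the 42 genes it was the only one at least 4-fold higher in PN than in DN at both stages, of 22 kept at both, while 0.231% of all genes kept at both stages were. Pdm3 (chromosome 2R, 8327490 to 8396280), a POU factor known from olfactory receptor neurons, was at 1.08, 25.7 and 28.4 FPKM in the adult and at 1.97, 24.8 and 32.3 FPKM at 45 h APF. PN and DN thus carried similar levels of pdm3 and KC little.

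LIM-homeodomain genes, which combine a homeodomain with protein-binding LIM domains, were all at 5 FPKM or more in DN, 4 of 4 at each stage, and 0 of 4 in KC. Of all genes, 40.1% were detected in adult DN and 40.7% in DN at 45 h APF, and 38.5% and 37.2% in KC. Lim3 (chromosome 2L, 19079256 to 19108427), a factor of motor neuron identity, was at 0.225 FPKM in adult KC, 0.926 in PN and 12.3 in DN, and at 0.215, 9.97 and 8.39 FPKM at 45 h APF. Tup (chromosome 2L, 18859507 to 18881261), the fly islet gene, was at 0.139, 64.5 and 10.01 FPKM in the adult and at 0.418, 6.93 and 8.52 FPKM at 45 h APF. Ap, the wing and neuron factor apterous, was at 1.70, 1.00 and 9.08 FPKM in the adult and at 0.699, 7.55 and 7.97 FPKM at 45 h APF. Awh stayed highest in DN, with 0.476 FPKM in adult KC and 8.83 in DN, and with 0.544, 2.33 and 12.1 FPKM in the 3 populations at 45 h APF. In adult PN Awh is listed at 0.

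Of the 8 NK-like and Bar genes, 4 were detected in DN at each stage, 1 in PN at 45 h APF and 0 in KC or adult PN. The share of all genes detected was between 37.2% and 40.7% in each column. Scro (chromosome 3L, 24724162 to 24758036), the NK-type factor scarecrow, was at 1.23 FPKM in adult KC, 3.47 in PN and 32.6 in DN, and at 1.27, 32.4 and 43.2 FPKM at 45 h APF. Bsh, the brain-specific homeobox gene, was at 0.212, 0.225 and 10.9 FPKM in the adult and at 0.696, 2.74 and 13.3 FPKM at 45 h APF. Slou and Dr followed with smaller values, slou at 0.121, 0.484 and 7.15 FPKM in the adult and 0.250, 3.67 and 8.22 FPKM at 45 h APF. Dr, the dorsal columnar gene of the embryonic nerve cord, was at 0.154, 0.195 and 6.12 FPKM in the adult and at 0.140, 3.34 and 9.58 FPKM at 45 h APF. The Bar genes B-H1 and B-H2, 73.3 kb apart, were above 0.1 FPKM only in DN, at 0.827 and 1.03 FPKM in the adult and 1.53 and 1.38 FPKM at 45 h APF. Vnd, the ventral columnar gene, peaked at 0.337 FPKM, and lbe was listed at 0 in all 6 columns.

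Of the paired-like genes, hbn and Rx are neighbours 17.6 kb apart on opposite strands, and both are brain genes of the embryo. Hbn (homeobrain, chromosome 2R, 20954668 to 20960909) was at 0.563 FPKM in adult KC, 0.131 in PN and 11.9 in DN, and at 1.496, 73.4 and 16.8 FPKM at 45 h APF. Rx (chromosome 2R, 20916753 to 20937030), the retinal homeobox gene, was at 0.395 FPKM in adult KC and 14.7 in DN and is listed at 0 in adult PN. At 45 h APF it was at 3.24, 8.98 and 20.0 FPKM. Otp, a homeobox gene that lies 13.3 kb from Rx, is not one of the 42 and is on the projection neuron marker list. It was at 0.176, 212 and 12.4 FPKM in the adult and at 0.328, 33.6 and 8.89 FPKM at 45 h APF. Otp thus had its highest level in adult PN, the column where hbn had its lowest.

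**Figure D3:**
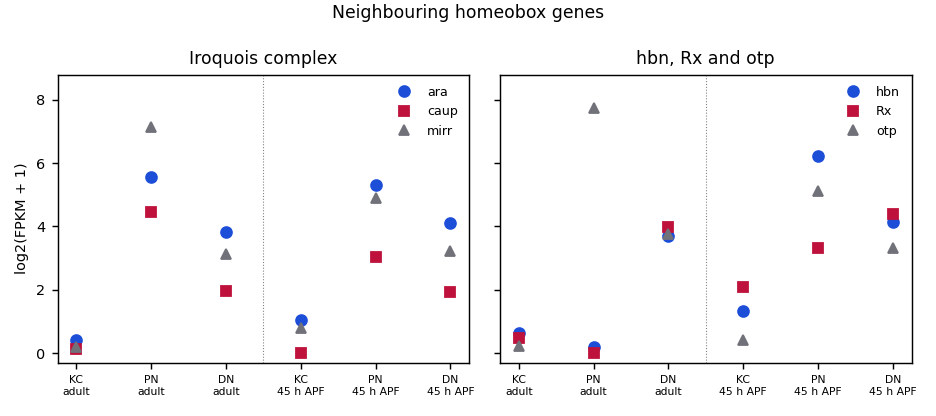
Levels as log2(FPKM + 1) of neighbouring homeobox genes in KC, PN and DN, adult columns left of the 45 h APF columns, with 1 point per gene and column. All 3 Iroquois genes peak in PN at both stages. In adult PN otp stands at 212 FPKM beside hbn at 0.131 FPKM.

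The Six-family gene Optix (chromosome 2R, 8031283 to 8042529), known from the eye and optic lobe, was at 0.688 FPKM in adult KC, 4.86 in PN and 22.9 in DN, and at 2.15, 10.7 and 26.3 FPKM at 45 h APF. Dve, a factor of the gut and the retina, was at 0.664, 3.83 and 3.62 FPKM in the adult and at 1.27, 9.39 and 7.53 FPKM at 45 h APF. It was detected in PN and DN at 45 h APF and in no adult column.

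The other 21 genes stayed under 5 FPKM in all columns, with peaks between 0 (lbe) and 4.60 FPKM (zfh1, PN at 45 h APF). The 5 anterior Hox genes, which set segment identity from the rear of the brain through the gnathal segments and thorax, were all among them. Together they summed to 0.114, 4.27 and 5.68 FPKM in adult KC, PN and DN and to 0.253, 2.45 and 6.55 FPKM at 45 h APF. In DN pb led, at 2.42 FPKM in the adult and 2.59 FPKM at 45 h APF, and Antp was lowest, at 0.182 and 0.235 FPKM. Of the exon length of Antp, 50.1% is shared on the same strand with CG46458, which has no values here. Reads in that overlap cannot be attributed. In PN the leading Hox gene was Scr in the adult, at 2.35 FPKM, against 0.00896 FPKM at 45 h APF, where lab led at 2.39 FPKM, against 0.0225 FPKM in the adult.

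En and inv, the engrailed pair, lie 14.3 kb apart, and both exceeded 1 FPKM in DN only, en at 1.63 FPKM in the adult and 1.34 FPKM at 45 h APF and inv at 1.84 and 2.12 FPKM. Unc-4 had the same shape, at 1.48 and 1.46 FPKM in adult and 45 h APF DN and under 0.1 FPKM in the other 4 columns. Ems, which projection neurons are known to need during development, was at 0.0220 FPKM in adult KC, listed at 0 in adult PN and at 0.685 in DN, and at 0.235, 0.478 and 0.882 FPKM at 45 h APF. Oc (orthodenticle), a gene of the anterior brain, was at 0.0964, 2.22 and 1.56 FPKM in the adult and at 0.0194, 0.152 and 1.32 FPKM at 45 h APF. For nub, a POU factor, the values were 0.252, 3.38 and 1.75 FPKM in the adult and 0.136, 1.24 and 0.176 FPKM at 45 h APF. Peaks of the rest were 3.14 FPKM for so (DN, 45 h APF), 1.98 for ro (PN, 45 h APF), 0.500 for eve (DN, adult), 0.217 for gsb-n (PN, 45 h APF) and 0.0931 for ind (DN, adult). A small lineage and a low level per cell cannot be told apart in these bulk samples.

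The populations were then set against each other within each stage, on log2(FPKM + 1) and over genes whose mean in the 3 columns of the stage reached 1 FPKM. This kept 27 of the 42 genes in the adult and 24 at 45 h APF. A gene kept only through the column where it was high had to differ, so the counts describe the kept genes and not the whole list. KC stood at least 4-fold lower than DN for 12 of 27 kept genes in the adult and 15 of 24 at 45 h APF, and higher for 0 at each stage. The genes lower at 45 h APF include so, which is listed at 0 in KC and at 3.14 FPKM in DN. Of all kept genes, 5.19% in the adult and 6.45% at 45 h APF were that much lower in KC than in DN, and 2.22% and 1.74% were higher. Scro had the largest adult difference, -3.91 on the log2 scale, and also the largest at 45 h APF, -4.28. Optix (-3.82 and -3.12), pdm3 (-3.82 and -3.48) and Lim3 (-3.44 and -2.95) came with it, adult value first. In all, 12 genes were lower at both stages, namely ara, Awh, Lim3, tup, bsh, Dr, scro, slou, hbn, Rx, Optix and pdm3, of 22 kept at both, against 2.85% of all genes kept at both. The median difference of the kept homeobox genes was -1.83 in the adult and -2.35 at 45 h APF, and that of all kept genes 0.03 and 0.02. Levels this low make the counts depend on the pseudocount: with 0.1 in place of 1 the genes lower in KC numbered 21 at each stage, and with 5 they numbered 3 at each stage. Shares of all kept genes, here and in the comparisons that follow, are for a pseudocount of 1 only. Over all 42 genes, with no filter, the medians were -1.31 in the adult and -1.45 at 45 h APF. The listed homeobox genes are longer than most genes. Kept genes in the fifth of all matched genes with the longest exons had medians of 0.18 in the adult and -0.29 at 45 h APF. The part of the muscle and glial markers in the DN columns in these differences was not tested.

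KC against PN gave 6 of 27 kept genes at least 4-fold lower in KC in the adult (8.10% of all kept genes) and 1 higher, Vsx1 (2.62%). At 45 h APF 11 of 24 were lower (7.06%) and 0 higher (2.30%). Adult differences ran from -5.85 for tup through ara (-5.13), unpg (-4.82), hth (-4.65) and caup (-4.34) to pdm3 (-3.68), and Vsx1 was at 3.49. At 45 h APF the largest were unpg (-5.23), hbn (-4.90), ara (-4.27), scro (-3.88) and Lim3 (-3.17). Ara, caup, tup, pdm3 and unpg were lower in KC at both stages, 5 of 22 against 1.95% of all genes kept at both. Medians of the kept homeobox genes were -1.001 and -1.92 in the adult and at 45 h APF, beside 0.01 and 0.02 for all kept genes. The fifth of genes with the longest exons had medians of -0.40 and -0.005. Over all 42 genes with no filter the medians were -0.11 and -0.85. The genes lower in KC numbered 13 in the adult and 18 at 45 h APF with a pseudocount of 0.1, and 6 and 5 with a pseudocount of 5, where Vsx1 also fell short of 4-fold (1.80). Rescaling the columns to the same sum gave 10 lower in the adult. The glial marker sum, 60.6 FPKM in adult PN and 1589 FPKM in PN at 45 h APF, also separates the PN columns, and its part in these differences was not tested.

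PN and DN differed in opposite directions by gene. In adult PN 4 of 27 kept genes were at least 4-fold higher than in DN (4.43% of all kept genes), hth (3.54), unpg (3.29), tup (2.57) and caup (2.51). Another 10 of 27 were lower (3.02%), among them hbn (-3.52), bsh (-3.29), scro (-2.91), Lim3 (-2.79) and Dr (-2.57), with Rx and Awh listed at 0 in PN. At 45 h APF the same comparison gave 2 of 24 higher, unpg (4.26) and hbn (2.06), against 1.96% of all kept genes, and 1 lower, onecut (-2.02), against 2.80%. Hbn was thus higher in PN at 45 h APF and lower in PN in the adult, and 0.540% of all genes kept at both stages likewise differed 4-fold both ways. Its difference at 45 h APF is at the edge of that rule, and was 1.93 with columns rescaled to the same sum, 1.99 with quantile normalization, 1.99 with upper quartile scaling and 1.85 with a pseudocount of 5, all under 4-fold. With a pseudocount of 5 the adult difference of hbn (-1.72) and that of onecut at 45 h APF (-1.36) also fell short. The median difference of the kept homeobox genes was -0.14 in the adult and -0.39 at 45 h APF, and that of all kept genes -0.01 and 0.03. For the fifth of genes with the longest exons it was 0.54 and -0.09. With a pseudocount of 5 the adult count lower in PN was 1 in place of 10.

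**Figure D4:**
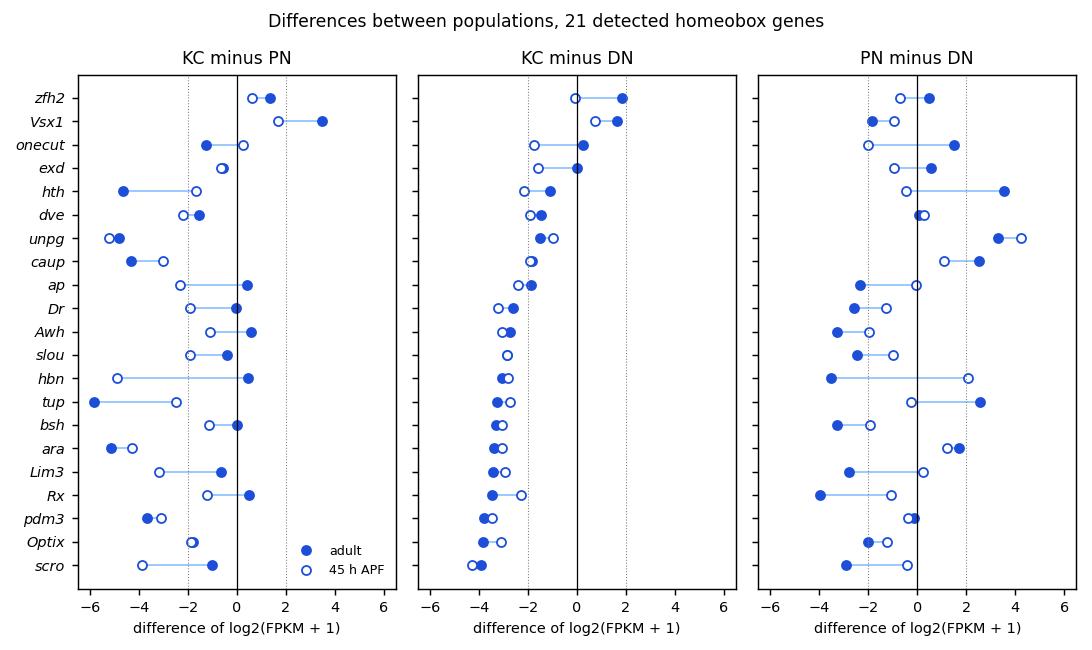
Differences of log2(FPKM + 1) between populations for the 21 detected homeobox genes, in the adult (filled) and at 45 h APF (open). Negative values are lower in the population named first, and dotted lines mark 4-fold. In the middle panel 12 genes lie left of -2 at both stages, and in the right panel hbn spans from -3.52 in the adult to 2.06 at 45 h APF.

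Each population was also compared between the stages. DN showed the smallest differences. For the 21 detected genes in DN the median absolute log2 difference was 0.40, the extremes were 0.68 (hth) and -0.88 (dve), and 0 genes differed 2-fold, while 33.8% of all genes kept in DN did. By the 4-fold rule 0 of 33 kept homeobox genes were higher in adult DN and 0 lower, against 3.83% and 6.30% of all kept genes. Their median difference was -0.18, beside -0.19 for all kept genes and 0.16 for the fifth of genes with the longest exons. The 7 glial markers summed to 218 FPKM in adult DN and 665 FPKM at 45 h APF, and the 5 muscle markers to 3.84 and 177 FPKM.

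PN differed most between the stages, with 16 of the 21 detected genes at least 2-fold apart, beside 56.3% of all genes kept in PN. Hth stood at 264 FPKM in adult PN and 9.24 in PN at 45 h APF (4.69 on the log2 scale), onecut at 74.0 and 3.27 FPKM (4.13) and tup at 64.5 and 6.93 FPKM (3.05). These 3 were the genes at least 4-fold higher in adult PN, of 27 kept, against 13.0% of all kept genes. Lower in adult PN by 4-fold were 5 of 27 genes (12.1% of all kept genes). Hbn was the furthest, at 0.131 FPKM in adult PN and 73.4 FPKM at 45 h APF (-6.04), followed by scro at 3.47 and 32.4 FPKM (-2.90), Lim3 at 0.926 and 9.97 FPKM (-2.51) and ap at 1.00 and 7.55 FPKM (-2.09). Rx, the fifth, was listed at 0 in adult PN and stood at 8.98 FPKM at 45 h APF. The counts, 11.1% and 18.5% of the kept homeobox genes, are near the shares of all kept genes, and they were 6 higher and 11 lower with a pseudocount of 0.1, and 3 and 2 with a pseudocount of 5. Rescaling the columns gave 5 higher and 4 lower. Ap fell short of 4-fold with that rescaling (-1.85) and with upper quartile scaling (-1.97). All 7 glial markers were lower in adult PN than in PN at 45 h APF, all 5 projection neuron markers and all 4 neuron markers were higher, and the part of these shifts in the homeobox differences was not tested. Exon length also differs: its median was 3094 bases in the 42 genes and 1476.5 bases in all matched genes, and the fifth of genes with the longest exons had a median adult difference of 0.81 in PN, where the kept homeobox genes had -0.88 and all kept genes -0.30.

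In KC, 11 of the 42 genes were kept in the stage comparison. Their median difference was 0.50, beside -0.31 for all kept genes and 0.54 for the fifth of genes with the longest exons. The part of exon length was not tested. Onecut (30.7 FPKM in adult KC and 4.11 at 45 h APF, 2.63) and zfh2 (9.96 and 0.970 FPKM, 2.48) were at least 4-fold higher in the adult, 2 of 11 against 7.64% of all kept genes, and 0 were lower, against 5.81%. With a pseudocount of 5 neither reached 4-fold (1.97 for onecut and 1.33 for zfh2). Tdg, which overlaps 18.7% of the zfh2 exon length on the opposite strand, was at 9.63 FPKM in adult KC and 2.13 FPKM at 45 h APF. Its part in the zfh2 difference was not tested. All 4 neuron markers were also higher in adult KC, with sums of 1041 FPKM in the adult and 198 FPKM at 45 h APF, as were 5 of the 6 Kenyon cell markers, and their part in these differences was not tested. Hth was at 9.55 FPKM in adult KC and 2.21 FPKM at 45 h APF. Onecut was thus higher by 4-fold in adult PN and, with the pseudocount of 1, in adult KC, and in DN it stood at 25.4 FPKM in the adult and 16.3 FPKM at 45 h APF. Exd and Vsx1 were detected in KC at both stages.

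**Figure D5:**
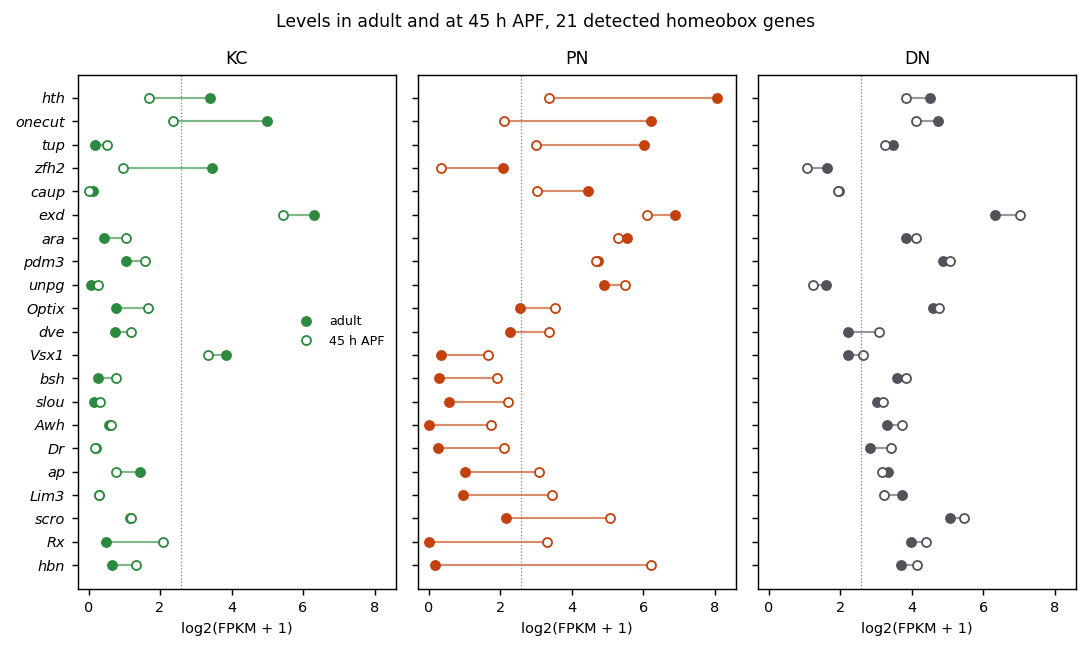
Levels of the 21 detected homeobox genes as log2(FPKM + 1) in the adult (filled) and at 45 h APF (open), 1 panel per population, ordered by the PN difference. The dotted line marks 5 FPKM. Bars joining the stages are short in DN, where the furthest apart is dve at -0.88, and reach 4.69 for hth and -6.04 for hbn in PN.

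A list of 56 further homeobox genes of the fly, all found in the table, was read the same way. Of these 6 were detected in adult KC, 10 in PN and 19 in DN, and 7, 16 and 22 at 45 h APF, the same order of populations as for the 42 genes, where 37.2% to 40.7% of all genes were detected in each column. In adult KC 16 of 26 kept genes were at least 4-fold lower than in DN and 2 were higher, ey and toy, the Pax6 genes of Kenyon cells, against 5.19% and 2.22% of all kept genes. At 45 h APF 14 of 29 were lower and 1, ey, was higher, against 6.45% and 1.74%. Ey and toy are also on the Kenyon cell marker list, acj6, vvl, C15 and otp on the projection neuron list, and repo on the glial list.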

How the data were processed

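The 3 columns at 45 h APF and the 3 adult columns of the series table hold FPKM made by the authors, who averaged the adult replicates, per the file headers. The submitters' processing notes name TopHat, Cufflinks and the build dm6. Per the labels' protocols, polyA RNA (aim 1 ng) was made into libraries with SmartSeq V2 and read to a planned 25 M reads. Column sums were 886258 to 1055098 FPKM at 45 h APF and 611610 to 720834 in the adult.

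Of 16859 lines, 5 with a date as name were left out. Names were matched to Ensembl release 115 (12785 by symbol, 3911 by synonym, 158 unmatched), and coordinates are from that annotation, which shares dm6 positions. All 42 genes overlapped their locus in the table, and 14 share a locus string with another gene. Because 129 genes had a 0 beside a value of at least 50 FPKM elsewhere, no fold is given against a 0. Genes listed at 0 in a compared column stay in the 4-fold counts. Depth at 45 h APF was estimated from genes with 1 transcript, taking the length less 200 bases, and 89.2% to 91.9% of low values were within 0.1 of whole reads. The depth of the adult means is unknown.

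Differences are of log2(FPKM + 1). Genes were kept where their mean reached 1 FPKM over the columns of the stage, or over both columns of a stage comparison, and called at 4-fold. No test was made. The genes and lists were chosen with earlier results of these data known. Values in all columns were given for genes reaching 5 FPKM anywhere. Alternatives changed the pseudocount (0.1, 5), the filter, the detection level and the scaling. Python 3.11.15, numpy 2.4.6 and pandas 2.3.3 were used.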

Additional observations from a re-analysis of the deposited data

Results flagged for a closer look

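Hbn differed between PN and DN in opposite directions at the 2 stages, with -3.52 on the log2 scale in the adult (0.131 FPKM in PN and 11.9 in DN) and 2.06 at 45 h APF (73.4 FPKM in PN and 16.8 in DN). It was the only one of 22 homeobox genes kept at both stages that differed 4-fold both ways, beside 0.540% of all genes kept at both. The call does not hold under most alternatives: at 45 h APF the difference was 1.93 with columns rescaled to the same sum, 1.99 with quantile normalization, 1.99 with upper quartile scaling and 1.85 with a pseudocount of 5, and the adult difference was -1.72 with a pseudocount of 5. The direction at each stage was the same in all of these, though a change of pseudocount cannot reverse a direction. The difference between the stages was not tested. The glial marker sum was 60.6 FPKM in adult PN and 1589 FPKM in PN at 45 h APF, and its part in the hbn values was not tested.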

How the results depend on the processing

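No paired analysis was possible because the table holds 1 column per population and stage, and for the same reason leaving out a replicate was not run. With 1 FPKM as the level of detection, 9, 18 and 32 genes were detected in adult KC, PN and DN and 11, 24 and 33 at 45 h APF, and with 10 FPKM 3, 8 and 12 in the adult and 1, 7 and 11 at 45 h APF. Shares of all genes at these levels are not given. Counts below are of homeobox genes at least 4-fold apart, also without the share of all genes under the same alternative. With a pseudocount of 0.1 they were 3 higher and 13 lower for adult KC minus PN, 1 and 21 for adult KC minus DN, 1 and 18 for KC minus PN at 45 h APF, 4 lower for PN minus DN at 45 h APF, 1 lower for adult KC against KC at 45 h APF, and 6 and 11 for PN between the stages. The medians then became -1.66 and -3.95 for adult KC minus PN and KC minus DN, and -3.34 and -3.69 at 45 h APF. With a pseudocount of 5 the counts were 0 higher for adult KC minus PN, 3 lower for adult KC minus DN (median -0.88), 1 lower for adult PN minus DN, 5 lower for KC minus PN at 45 h APF (median -0.94), 3 lower for KC minus DN at 45 h APF (median -1.34), 1 higher and 0 lower for PN minus DN at 45 h APF, 0 higher for KC between the stages and 2 lower for PN between the stages. Rescaling each column to the same sum, which moved the median of all kept genes by -0.23 to 0.53, gave 10 lower for adult KC minus PN, 1 higher and 3 lower for PN minus DN at 45 h APF, 5 higher for PN between the stages, and medians of -0.98 for adult PN minus DN and 0.31 for DN between the stages, the last reversed. Quantile normalization (median of all kept genes moved by -0.10 to 0.20) gave 1 higher for KC minus PN at 45 h APF, 1 higher and 2 lower for PN minus DN at 45 h APF, and a reversed median of 0.11 for DN between the stages. Upper quartile scaling (-0.10 to 0.18) gave 1 higher and 2 lower for PN minus DN at 45 h APF and 0.0042 for the DN stage median, also reversed. Without a filter the medians were -0.11 for adult KC minus PN, -0.85 and -1.45 for KC minus PN and KC minus DN at 45 h APF and -0.063 for PN between the stages. With a filter at 5 FPKM there were 6 lower for adult KC minus DN, 3 lower for adult PN minus DN and 3 lower for PN between the stages. The medians were then -1.80 for adult KC minus PN and 1.72 for KC between the stages, and those of adult PN minus DN (0.57) and PN between the stages (0.048) reversed. Other counts stayed within 1.5 times, and other medians moved by less than 1.5-fold. The 68 differences of single genes past 4-fold, with neither column at 0, kept their sign under all 5 pseudocounts and scalings. A change of pseudocount cannot reverse a sign, and the shifts of the scalings were small beside 4-fold. The kept signs are therefore no check of these differences. Leaving out genes listed at 0, an alternative chosen after seeing the data, kept all 18 counts within 1.5 times. The cause of these shifts was not tested.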

Other observations

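Some homeobox genes outside the 42 had patterns near those described above. CG11294, a paired-like gene, was at 0.597 FPKM in adult KC, 0.276 in PN and 12.2 in DN, and at 0.682, 54.7 and 6.82 FPKM at 45 h APF. Drgx, listed as CG34340, was at 0.394, 3.02 and 6.62 FPKM in the adult and at 0.477, 49.6 and 5.61 FPKM at 45 h APF. Both were at least 4-fold higher in PN than in DN at 45 h APF. In the adult CG11294 was at least 4-fold lower in PN than in DN, and the Drgx difference was under 4-fold. Dll, the limb gene Distal-less, was at 0.146, 0.298 and 2.17 FPKM in the adult and at 0.227, 16.4 and 5.46 FPKM at 45 h APF. Genes mainly of DN were CG32105 (now Lmx1a), at 0.292, 0.176 and 23.2 FPKM in the adult and 2.34, 10.5 and 19.6 FPKM at 45 h APF, and Dbx, at 0.0437, 0.200 and 10.2 FPKM in the adult and 0.629, 0.342 and 7.36 FPKM at 45 h APF. These genes were chosen after their values were seen, and the differences have no replicate check.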
